A study of Mus musculus with 14 samples.

Results

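The genes examined are those for the subunits of the voltage-gated sodium and calcium channels, taken from hippocampal RNA-seq of neonatal mice with and without gasdermin D (Gsdmd) after room air or hyperoxia. The rule used symbols only, but these genes and the lists of related genes and markers below were chosen with earlier results of these data known. For sodium channels it took the alpha subunits (Scn followed by a number and a) and the beta subunits (Scn followed by a number and b). For calcium channels it took the alpha1 subunits (Cacna1a to Cacna1i and Cacna1s), the alpha2delta subunits (Cacna2d1 to Cacna2d4) and the beta subunits (Cacnb1 to Cacnb4). Of the 36118 genes in the deposited table, 30 chosen in this way are described: 9 sodium alpha, 3 sodium beta, 10 calcium alpha1, 4 alpha2delta and 4 calcium beta genes. The genes of the gamma-subunit family (Cacng) were kept apart as a list of related genes.

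Hippocampal poly(A) RNA was sequenced at postnatal day 15 from 14 mice, with 1 library per mouse. WT-RA held 4 wild-type pups kept in room air (GSD398, GSD399, GSD400, GSD401), and WT-O2 held 4 wild-type pups (GSD404, GSD405, GSD406, GSD408) kept in 85% O2 from postnatal day 1 to day 14. KO-RA held 3 mice (GSD489, GSD490, GSD496) and KO-O2 held 3 (GSD491, GSD494, GSD495), which received the same exposures and were homozygous for a CRISPR/Cas9-derived Gsdmd allele with a small deletion in the fifth exon. The allele is carried by all cells of the animal. WT pups were littermates from heterozygote matings on a C57BL/6N background, and values per mouse are given below in the order of this paragraph. The title of the public record of mouse GSD408 gives hyperoxia and its treatment field gives room air, and it was analysed by its title. All WT mice carry lower numbers than all KO mice, so genotype and a difference that runs with mouse number cannot be told apart.

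Voltage-gated sodium channels open on depolarization and carry the upstroke of the action potential. Each has 1 pore-forming alpha subunit, and its beta subunits tune gating and anchor the channel in the membrane. Voltage-gated calcium channels turn depolarization into calcium entry, which drives transmitter release, gene transcription and rhythmic firing. Their alpha1 subunit forms the pore and defines the L, P/Q, N, R or T type of the current, while alpha2delta and beta subunits bring high-voltage-activated channels to the membrane. In the hippocampus, the set of subunits that a neuron expresses differs between principal cells and interneurons and shifts as neurons mature.

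Libraries held between 27272270 and 28257496 estimated counts. Gsdmd had 41 to 63 counts in WT and 22 to 42 in KO libraries, and since these are sums over its transcripts, they hold no information on the deletion itself. Markers of hippocampal principal neurons were present in every library, with a summed level of 728.9 to 989.6 CPM (counts per 1000000 counts of the library, scaled by edgeR's TMM factors) in WT-RA, 926.4 to 1109 in WT-O2, 1371 to 1705 in KO-RA and 1419 to 1660 in KO-O2. Markers of striatal projection neurons were higher in WT, at 602.2 to 831.1 CPM in WT-RA and 388.8 to 864.5 in WT-O2, against 196 to 291.5 in KO-RA and 204.2 to 222.4 in KO-O2. Markers of thalamic neurons spread widely between WT mice, from 176.2 to 925.7 CPM in WT-RA and from 325.6 to 702.1 in WT-O2, and lay between 209.3 and 229 in all KO mice. Mice GSD398 and GSD408 held the highest striatal and thalamic sums of their groups, so results are also given without them. Pan-neuronal markers summed to between 5385 and 6080 CPM in all groups.

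The channel genes covered a range of more than 3 orders of magnitude in level. Compared per length of merged exon, the most abundant of the members described in WT-RA was the calcium channel beta subunit gene Cacnb3, at 59.7 ± 9.3 CPM per kb (SD, n = 4). It was followed by the sodium channel beta subunit gene Scn3b at 48.9 ± 6.1 CPM per kb, within 2 SD of Cacnb3. The leading sodium channel pores were Scn2a at 34.3 ± 4.3 and Scn8a at 27.8 ± 3.1 CPM per kb, both alpha subunits of the axon initial segment, whose means were within 2 SD of each other. Among calcium channel pores, the P/Q-type gene Cacna1a led with 26.9 ± 5.4 CPM per kb, above the R-type gene Cacna1e with 18.0 ± 2.5 and the N-type gene Cacna1b with 14.4 ± 1.7. Of the alpha2delta subunits, Cacna2d3 and Cacna2d1 were the most abundant at 24.9 ± 2.4 and 22.2 ± 3.2 CPM per kb, with standard deviations that overlapped.

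A second set of members was barely expressed. These were genes known from other tissues: Scn4a and Cacna1s of skeletal muscle, Scn9a, Scn10a and Scn11a of peripheral sensory neurons, the glial sodium sensor Scn7a, and Cacna1f and Cacna2d4 of the retina. Their means in WT-RA lay between 0.0216 and 0.527 CPM per kb, while the other 22 members lay between 5.741 and 59.7. Scn4a had 1 to 7 counts per library and did not pass the filter on low counts, which left 29 members among the 16637 genes tested. Scn10a had 2 to 25 counts in WT and 0 to 3 in KO libraries. Scn11a had 7 to 29 counts in WT and 1 to 7 in KO libraries. Both passed the filter only through the WT groups, where they are higher, so they had to differ and their differences are not read as results. Apart from these and Scn4a, only Cacna1f fell under 10 counts in some library, which leaves 26 members with at least 10 counts in every library.

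**Figure D1:**
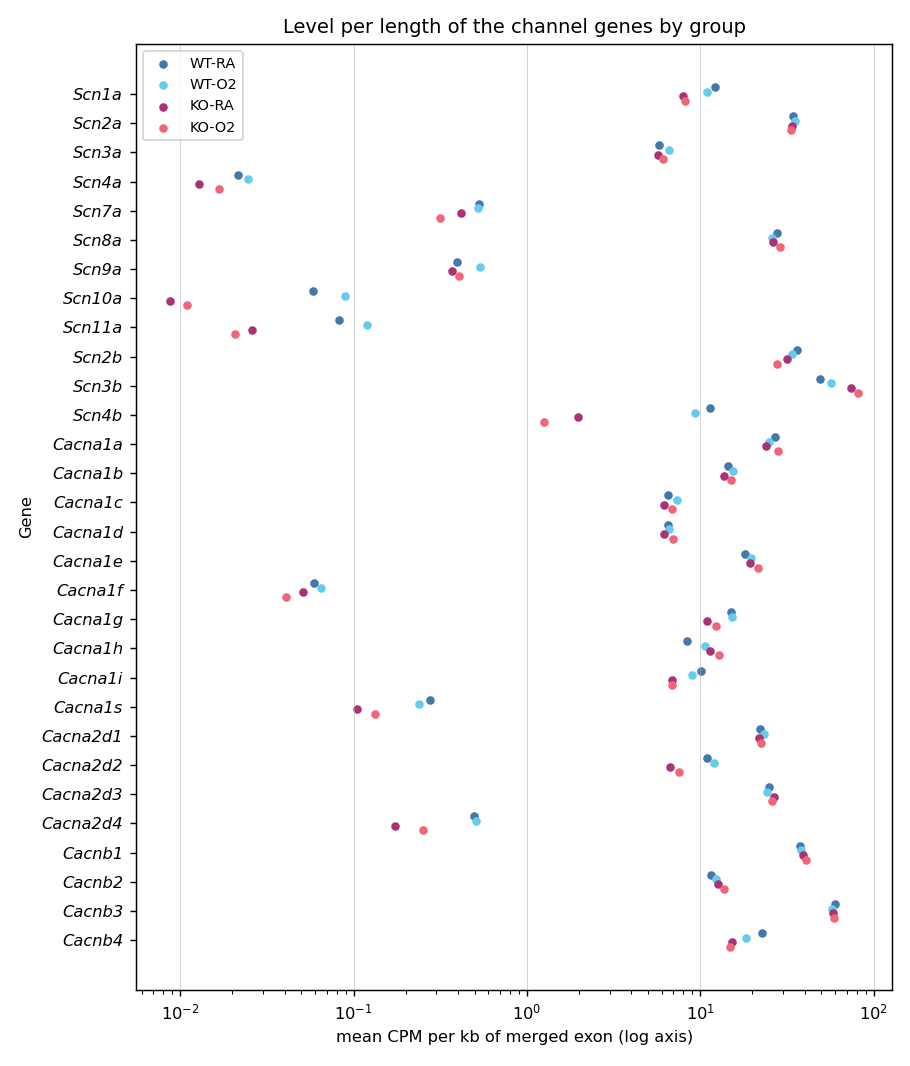
Mean level of each of the 30 channel genes in the 4 groups, in CPM per kb of merged exon on a log axis (1 point per group, WT groups n = 4, KO groups n = 3). Most members sit above 5 CPM per kb in every group, and the genes known from muscle, sensory neurons, glia and retina sit at or below 0.535. Among the members with at least 10 counts in every library, Scn4b stands out by the distance between its WT and KO points.

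KO and WT mice were first compared in room air. Counts were fitted with edgeR's quasi-likelihood model in all 14 libraries, and a gene was called differentially expressed when its log2 fold change was at least 0.32 in size, its p was under 0.05 and its q was under 0.1, the thresholds of the study's methods, where q is the p adjusted by Benjamini-Hochberg over all genes tested. In KO-RA vs WT-RA, 12 of 29 members (41.4%) were called, 2 higher and 10 lower in KO, against 10.4% of all genes tested (3.75% higher and 6.7% lower). The share of 41.4%, the 10 lower and the medians given next include Scn10a and Scn11a, which passed the filter only through WT. Of the 26 members with at least 10 counts in every library, 10 were called. Cacna1h and Scn3b were higher in KO and the others lower. The 10.4% is over all genes tested, including those with few counts. A share of all genes under the same filter as the 26 members is not given here. The median log2 fold change of the members was -0.088, against -0.0067 for all genes, and the median size of the change without its sign was 0.19 against 0.14.

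In KO-O2 vs WT-O2, 7 of 29 members (24.1%) were called, 1 higher and 6 lower in KO, against 6.86% of all genes (2.51% higher and 4.35% lower). Scn10a and Scn11a are again part of the 24.1%, the 6 lower and the medians. Of the 26 members with at least 10 counts in every library, 5 were called, with Scn3b higher in KO and the others lower. The 6.86% again includes genes with few counts, and a share under the filter of the 26 members is not given here. The median log2 fold change of the members was -0.12, against -0.0089 for all genes, and the median size of the change was 0.30 against 0.12. The comparisons in room air and in hyperoxia share no mice, but both rest on 1 fit with the same estimate of the spread per gene. In both comparisons, genotype also runs with mouse number. Without Scn10a and Scn11a they shared 5 called members, which is 50% of the 10 called in room air and all of the 5 called in hyperoxia. Over all genes tested, 755 calls were shared, which is 43.4% of those in room air and 66.1% of those in hyperoxia. These shares include genes with few counts, so they do not rest on the same filter as those of the members. The 5 members were the pore genes Scn1a and Cacna1i, the sodium beta subunits Scn3b and Scn4b and the alpha2delta gene Cacna2d2. Of the 26 members with at least 10 counts in every library, 22 (84.6%) had the same sign in both, against 71.6% of the 14858 genes with such counts, and whether these shares differ was not tested. In these bulk libraries, fewer cells of a type and less RNA per cell cannot be told apart. Such libraries also do not show which brain region the cells came from.

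**Figure D2:**
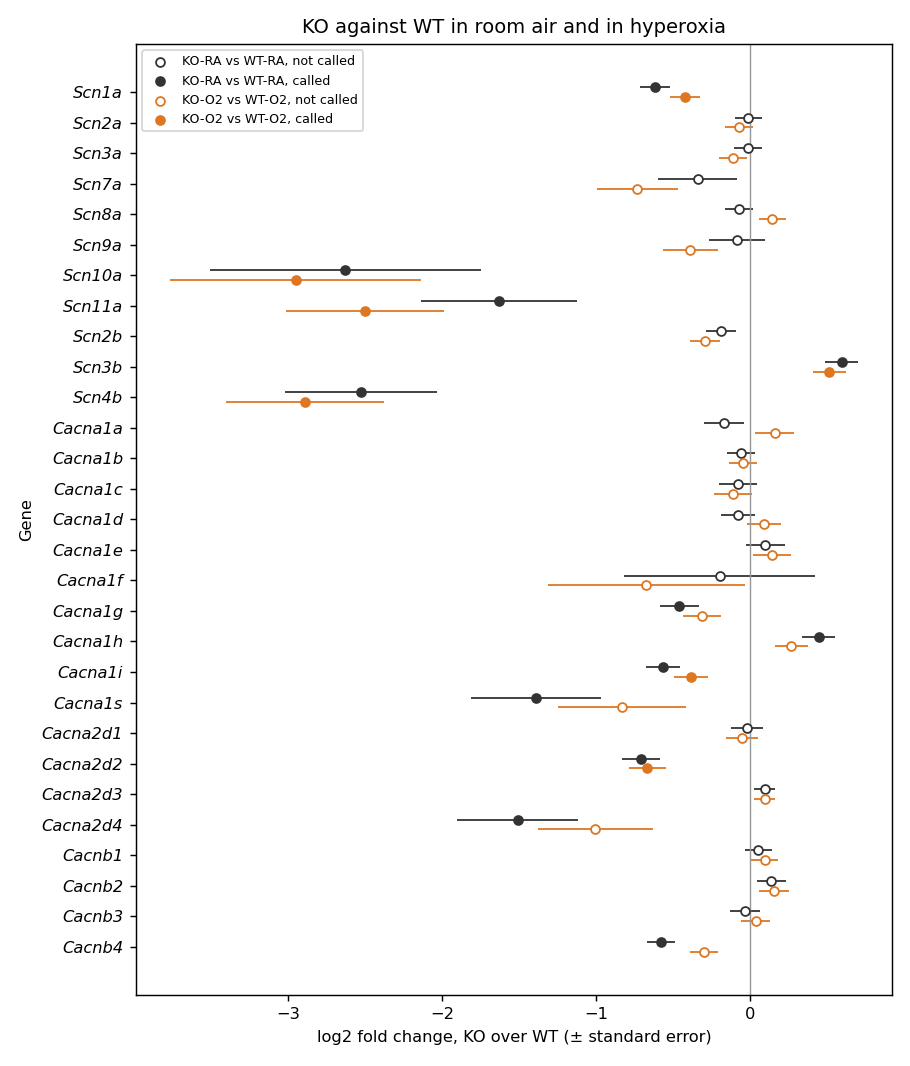
Log2 fold change of KO over WT with its standard error for the 29 channel genes tested, in room air (black) and in hyperoxia (orange), with filled points for genes called by edgeR. Scn4b is near the left at -2.53 and -2.89, Scn3b is the member called higher in both at 0.59 and 0.51, and genes such as Scn2a, Cacna2d1 and Cacnb3 lie close to 0.

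Of the members with at least 10 counts in every library, Scn1a, Scn4b, Cacna1i and Cacna2d2 were called lower in KO in both comparisons. Each has an entry in the RefSeq promoter table for GRCm38.p6. The 250 bases before each start are printed to show how far the promoters of genes that moved together differ from each other. Each is written 5′ to 3′ on the strand of the gene, with CG dinucleotides in capitals. They lie at chr2:66440838-66441087 on the minus strand (Scn1a), chr9:45138374-45138623 on the plus strand (Scn4b), chr15:80286988-80287237 on the plus strand (Cacna1i) and chr9:107399630-107399879 on the plus strand (Cacna2d2).
Scn1a: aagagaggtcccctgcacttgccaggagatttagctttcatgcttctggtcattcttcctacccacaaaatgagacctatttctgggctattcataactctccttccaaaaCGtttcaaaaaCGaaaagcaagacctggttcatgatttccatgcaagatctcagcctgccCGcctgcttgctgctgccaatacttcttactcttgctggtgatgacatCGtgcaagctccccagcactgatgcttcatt
Scn4b: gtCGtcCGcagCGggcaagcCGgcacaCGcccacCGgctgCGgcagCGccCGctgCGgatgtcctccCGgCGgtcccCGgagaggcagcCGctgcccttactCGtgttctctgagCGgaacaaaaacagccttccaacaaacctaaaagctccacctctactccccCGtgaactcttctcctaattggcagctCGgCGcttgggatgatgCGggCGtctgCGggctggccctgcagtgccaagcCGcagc
Cacna1i: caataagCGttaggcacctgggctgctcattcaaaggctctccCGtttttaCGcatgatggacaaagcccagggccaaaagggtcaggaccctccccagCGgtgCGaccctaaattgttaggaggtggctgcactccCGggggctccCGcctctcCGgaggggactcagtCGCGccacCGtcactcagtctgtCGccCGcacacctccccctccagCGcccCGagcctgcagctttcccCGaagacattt
Cacna2d2: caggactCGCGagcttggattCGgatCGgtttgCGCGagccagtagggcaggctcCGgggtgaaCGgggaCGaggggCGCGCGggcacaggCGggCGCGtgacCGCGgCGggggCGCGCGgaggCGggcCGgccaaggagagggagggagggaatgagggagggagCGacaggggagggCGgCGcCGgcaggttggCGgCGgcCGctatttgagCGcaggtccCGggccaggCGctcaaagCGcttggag

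The 4 promoters span a wide range of CG content. Scn1a held 4 CG dinucleotides at 46.8% G and C, Cacna1i 16 at 62.4%, Scn4b 23 at 66% and Cacna2d2 34 at 74.4%. Over all 32851 entries of the table, the median was 6 CG per 250 bases and the 75th percentile was 16, so Scn1a was below the median and Scn4b and Cacna2d2 were above the 75th percentile. A GC box (GGGCGG, searched on both strands) was found in Cacna2d2 and in none of the other 3, while 32.7% of all entries and 13 of the 34 entries of channel genes held it. TATAAA, searched on both strands, was in none of the 4, in 12.4% of all entries and in 2 of the 34 entries of channel genes. Entries were found for 24 members, and not for Cacna1a, Cacna1g, Cacna1h, Cacna2d4, Scn3a and Scn3b.

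Among the sodium channel alpha subunits, Scn1a was lower in KO in both exposures. Scn1a encodes a pore that is abundant in fast-spiking interneurons, and its loss in people causes Dravet syndrome, a severe childhood epilepsy. Its level was 124, 99.4, 90.7 and 101 CPM in the WT-RA mice and 71.4, 60.8 and 70.0 CPM in the KO-RA mice. In hyperoxia it was 89.8, 91.1, 93.0 and 100.2 CPM in WT-O2 and 63.9, 76.8 and 68.4 CPM in KO-O2. All 6 KO mice were below all 8 WT mice. The log2 fold change of KO over WT was -0.62 ± 0.097 (SE) in room air, with an adjusted p of 0.00127 in edgeR's test, and -0.42 ± 0.097 in hyperoxia, with an adjusted p of 0.0183.

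The other alpha subunits of central neurons were not called. Scn2a, the main pore of young excitatory axons, ranged over 270.3 to 358 CPM in the 14 mice, with log2 fold changes of KO over WT of -0.013 ± 0.089 in room air and -0.074 ± 0.089 in hyperoxia. Scn8a, which carries firing in mature axons, ranged over 287 to 389 CPM, with -0.073 ± 0.089 and 0.14 ± 0.089. Scn3a, the form most used before birth, ranged over 48.5 to 70.3 CPM, with -0.018 ± 0.092 and -0.12 ± 0.091. The WT and KO mice overlapped for each of these 3 genes in both exposures. Scn1a, Scn2a, Scn3a and Scn9a are close paralogs: between 5.87% and 9.45% of their 31-base words in GENCODE M21 transcripts also occur in another channel gene, so estimated counts could in part be shared between them.

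Of the low alpha subunit genes, Scn7a (1.83 to 5.56 CPM) and Scn9a (3.02 to 5.65 CPM) were not called in either exposure, although in hyperoxia Scn7a was called by DESeq2 or without WT-O2 mouse GSD404 (-0.86), and Scn9a was called without KO-O2 mouse GSD494 (-0.62).

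Scn10a and Scn11a, for the tetrodotoxin-resistant channels of pain-sensing neurons, were close to the limit of detection. Scn10a had 2, 14, 3 and 25 counts in the WT-RA mice and 12, 20, 21 and 14 in the WT-O2 mice. In the KO mice it had 0, 3 and 2 counts in room air and 2, 2 and 2 in hyperoxia. The WT-RA mice thus spread from the level of the KO mice to the highest count of all. Scn11a had 7, 13, 15 and 20 counts in WT-RA and 16, 17, 29 and 18 in WT-O2, against 2, 7 and 4 in KO-RA and 4, 1 and 5 in KO-O2. Both were among the calls counted above.

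Among the sodium channel beta subunits, Scn4b showed the greatest log2 fold change of the members with at least 10 counts in every library, and Scn3b moved the other way. Scn4b, the subunit linked to resurgent sodium current, is known for its abundance in the projection neurons of the striatum. Its level was 86.5, 62.0, 34.8 and 42.8 CPM in WT-RA and 7.24, 6.96 and 15.1 CPM in KO-RA. In hyperoxia it was 14.7, 39.7, 43.4 and 87.3 CPM in WT-O2 and 7.20, 5.36 and 6.15 CPM in KO-O2. The groups did not overlap within either exposure, although the lowest WT-O2 mouse (GSD404) was just below the highest KO-RA mouse (GSD496). The log2 fold change was -2.53 ± 0.49 in room air (adjusted p = 0.00498, edgeR), or 5.78-fold lower in KO, and -2.89 ± 0.52 in hyperoxia (adjusted p = 0.00434), or 7.42-fold lower.

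The level of Scn4b also spread widely between WT mice, from 14.69 to 87.27 CPM. The mice with the highest levels were GSD398 and GSD408, which also had the highest striatal marker sums, and without these 2 mice the log2 fold changes were -2.24 and -2.38, both called. The striatal sum was 831, 711, 602 and 617 CPM in WT-RA, 389, 638, 579.6 and 865 in WT-O2, 196, 221 and 292 in KO-RA and 222, 204 and 217 in KO-O2. The KO-RA mouse with the most Scn4b and the WT-O2 mouse with the least were also the KO mouse with the highest and the WT mouse with the lowest striatal sum. All 10 striatal markers were called lower in KO in room air and 9 of 10 in hyperoxia. None was at 0: the dopamine receptor genes Drd1 and Drd2 lay at 13.59 to 26.06 and 7.877 to 25.7 CPM in WT and at 1.913 to 5.728 and 4.011 to 7.471 CPM in KO. The part of these markers in the difference in Scn4b was not tested.

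**Figure D3:**
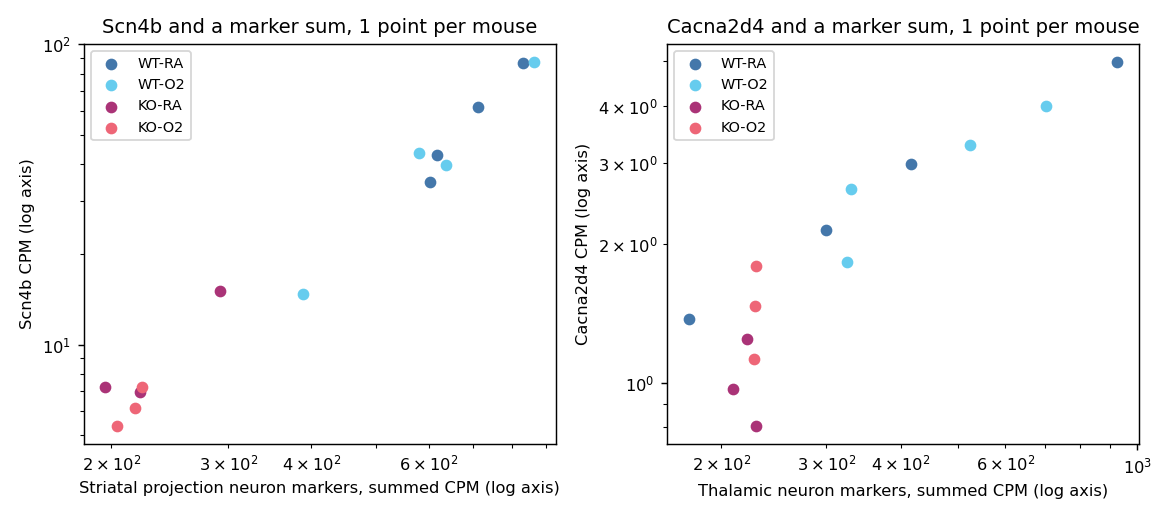
Scn4b against the summed level of 10 striatal projection neuron markers (left) and Cacna2d4 against the sum of 10 thalamic neuron markers (right), in CPM on log axes, 1 point per mouse. The KO mice lie low in both plots, and within the WT mice each channel gene is highest in the mouse with the most marker RNA, GSD408 for Scn4b (87.3 CPM) and GSD398 for Cacna2d4 (4.98 CPM).

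Scn3b, a beta subunit that pairs with the neuronal alpha subunits without a covalent bond, was higher in KO. Its level was 212, 251, 234 and 188 CPM in WT-RA and 372, 319.5 and 309 CPM in KO-RA. In hyperoxia it was 288, 272, 257 and 214 CPM in WT-O2 and 349.8, 377 and 376 CPM in KO-O2. Every KO mouse was above every WT mouse. The log2 fold change was 0.59 ± 0.11 in room air (adjusted p = 0.00316, edgeR) and 0.51 ± 0.11 in hyperoxia (adjusted p = 0.0103). The summed hippocampal principal neuron markers moved in the same direction, with 8 of 10 called higher in KO in room air and 4 of 10 in hyperoxia, and no KO mouse overlapped a WT mouse in that sum. Their part in the difference in Scn3b was not tested.

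The beta subunit Scn2b, which is linked to the alpha subunit by a disulfide bond, was not called and was 139 to 174 CPM in WT-O2 and 124 to 138 CPM in KO-O2. Its log2 fold change was -0.19 ± 0.098 in room air and -0.30 ± 0.099 in hyperoxia, where the adjusted p of 0.101 was just above the threshold and the gene was called without WT-O2 mouse GSD404 (-0.35).

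**Figure D4:**
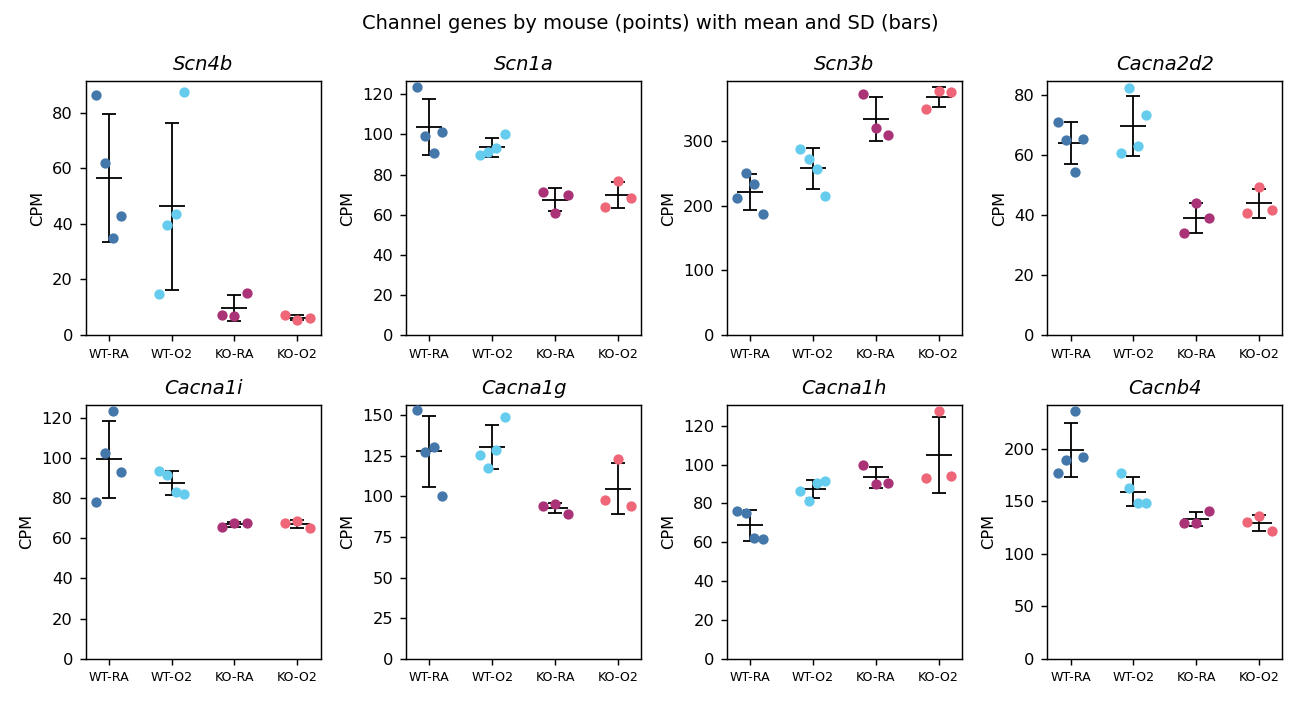
Level of 8 called channel genes in each mouse, in CPM (points), with the group mean and SD (horizontal line and bars; WT groups n = 4, KO groups n = 3; each axis starts at 0). Scn1a and Cacna2d2 in KO lie below all WT mice and Scn3b lies above them, while Cacna1g and Cacna1h in the KO-O2 mouse GSD494 (122.8 and 127.5 CPM) stand above the other mice of their group.

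All 3 genes of the low-voltage-activated T-type calcium channels, which open near rest and support burst firing, were called in room air, but not in one direction. Cacna1i was lower in KO in both exposures: it was 78.1, 102, 124 and 93.2 CPM in WT-RA and 65.6, 67.6 and 67.6 CPM in KO-RA. In hyperoxia it was 93.5, 91.6, 83.2 and 81.8 CPM in WT-O2 and 67.7, 68.5 and 64.9 CPM in KO-O2. The KO mice were tightly grouped at 64.9 to 68.5 CPM, below every WT mouse. On the log2 scale, KO differed from WT by -0.57 ± 0.11 in room air (adjusted p = 0.00508, edgeR) and -0.38 ± 0.11 in hyperoxia (adjusted p = 0.0581). In hyperoxia the call was lost without WT-O2 mouse GSD404 or GSD405 or without any KO-O2 mouse, with log2 fold changes between -0.40 and -0.35.

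Cacna1g was also lower in KO, at 153, 127, 130.4 and 99.97 CPM in WT-RA and 93.9, 95.3 and 89.2 CPM in KO-RA. The highest KO-RA mouse was close to the lowest WT-RA mouse, without overlap. This gave a log2 fold change of -0.46 ± 0.13, with an adjusted p of 0.0316 in edgeR's test, and the call was lost without KO-RA mouse GSD496 (-0.42). The mice in hyperoxia had 126, 118, 129 and 149 CPM in WT-O2 and 97.8, 123 and 93.9 CPM in KO-O2, where KO mouse GSD494 was within the WT range. That log2 fold change was -0.31 ± 0.13 with an adjusted p of 0.178, which was not called, and without GSD494 it was -0.44 and called. GSD494 also decided the call of Scn9a in hyperoxia. Its summed choroid plexus marker level was 105.8 CPM, against 1706 and 3397 CPM in the other KO-O2 mice. KO-RA mouse GSD489 had a still lower sum, 36.81 CPM. In GSD489, Cacna1g was 93.9 CPM and Scn9a 3.71 CPM, both between the values of the other KO-RA mice. The part of these markers in the values was not tested.

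Cacna1h, in contrast, was higher in KO in room air. It was 76.3, 74.8, 62.0 and 61.8 CPM in WT-RA and 99.8, 89.9 and 90.7 CPM in KO-RA, and these groups were well apart. The difference of KO from WT on the log2 scale was 0.44 ± 0.11, with an adjusted p of 0.0171 in edgeR's test. After hyperoxia it was 86.6, 81.0, 90.3 and 91.8 CPM in WT-O2 and 93.3, 128 and 94.2 CPM in KO-O2. The KO mice were again above the WT mice, but with a gap of under 2 CPM, and the log2 fold change of 0.26 ± 0.11 (adjusted p = 0.187) was not called.

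The pore genes of the high-voltage-activated channels of neurons were not called in either exposure. The presynaptic P/Q-type and N-type genes, Cacna1a and Cacna1b, ranged over 169.8 to 272 and 122 to 165 CPM in the 14 mice. Their log2 fold changes of KO over WT were -0.17 ± 0.13 and -0.061 ± 0.089 in room air and 0.16 ± 0.13 and -0.047 ± 0.089 in hyperoxia. The L-type genes Cacna1c and Cacna1d, which couple activity to transcription, gave -0.079 ± 0.12 and -0.080 ± 0.11 in room air and -0.11 ± 0.12 and 0.090 ± 0.11 in hyperoxia. The R-type gene Cacna1e gave 0.098 ± 0.12 and 0.14 ± 0.12. The fold changes of these 5 genes were at most 1.125.

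Of the low calcium pore genes, Cacna1s was called lower in KO in room air. It was 2.87, 1.34, 1.45 and 1.40 CPM in WT-RA and 0.631, 0.665 and 0.712 CPM in KO-RA, with the first WT-RA mouse, GSD398, about 2-fold above the other 3. On the log2 scale, KO differed from WT by -1.39 ± 0.42 with an adjusted p of 0.0515 in edgeR's test, and it was -1.05 and not called without GSD398. The call was also lost without any 1 of the KO-RA mice. The mice in hyperoxia had 0.806, 0.968, 1.35 and 2.98 CPM in WT-O2 and 0.823, 0.917 and 0.825 CPM in KO-O2, and the log2 fold change of -0.83 ± 0.41 was not called. Of the 31-base words of Cacna1s, 17.8% also occur in the gene model Gm37759. All 7 striated muscle markers summed to 7.05 to 10.6 CPM in the 14 mice.

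Cacna2d2 was the member of the alpha2delta family that edgeR called lower in KO in both exposures. Its protein, which binds gabapentin, raises the surface level of calcium channels, and its loss in the ducky mouse causes ataxia and absence seizures. Its level was 71.0, 65.0, 54.3 and 65.4 CPM in WT-RA and 34.1, 43.8 and 39.1 CPM in KO-RA. After hyperoxia it was 60.5, 82.2, 62.9 and 73.5 CPM in WT-O2 and 40.7, 49.3 and 41.6 CPM in KO-O2. All KO mice were below all WT mice. This gave a log2 fold change of -0.71 ± 0.12 in room air (adjusted p = 0.00233, edgeR) and -0.67 ± 0.12 in hyperoxia (adjusted p = 0.00481). Markers of interneurons were also lower in part, with 4 of 8 called lower in KO in room air and 2 of 8 in hyperoxia. Log2 fold changes were positive for 3 of the 8 in room air (Vip, Sst and Lhx6) and for 2 in hyperoxia (Vip and Sst), none of them called. The sum of all 8 markers was 657 to 1042 CPM in WT-RA, 813.7 to 974.1 in WT-O2, 701.1 to 710.8 in KO-RA and 725 to 755.8 in KO-O2. The part of these markers in the differences in Cacna2d2 and Scn1a was not tested.

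Cacna2d4, a low-level member known from photoreceptors, was 4.98, 2.99, 1.38 and 2.15 CPM in WT-RA and 0.966, 0.805 and 1.245 CPM in KO-RA. The lowest WT-RA mouse, GSD400, was just above the highest KO-RA mouse. The difference of KO from WT on the log2 scale was -1.51 ± 0.39 with an adjusted p of 0.0243 in edgeR's test. The mice in hyperoxia had 2.64, 1.83, 3.29 and 3.997 CPM in WT-O2 and 1.79, 1.47 and 1.13 CPM in KO-O2, and the log2 fold change of -1.01 ± 0.38 (adjusted p = 0.147) was not called by edgeR in the 14 libraries, but was called by DESeq2 and by edgeR on these 2 groups alone. Without mice GSD398 and GSD408 the values were -1.10, which was called, and -0.81, which was not. The thalamic marker sum was 926, 417, 176 and 299 CPM in WT-RA and 329.9, 326, 523 and 702 in WT-O2, against 209, 229 and 221 in KO-RA and 229, 228 and 227 in KO-O2. Among the WT-RA mice it had the same order as Cacna2d4, and 6 of the 10 thalamic markers were called lower in KO in room air and 5 in hyperoxia. Their part in the difference was not tested.

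The abundant alpha2delta genes were not called. Cacna2d1, the main gabapentin receptor of excitatory neurons, ranged over 166 to 225 CPM, with log2 fold changes of KO over WT of -0.021 ± 0.10 in room air and -0.056 ± 0.10 in hyperoxia. Cacna2d3 ranged over 87.9 to 111 CPM, with 0.093 ± 0.069 and 0.092 ± 0.069, and had some of the smallest standard errors of the family.

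Of the calcium channel beta subunits, which bind the alpha1 subunit inside the cell, only Cacnb4 was called. Mutation of Cacnb4 in the lethargic mouse causes ataxia and absence seizures. Its level was 177, 190.0, 237 and 192 CPM in WT-RA and 129, 129 and 141 CPM in KO-RA. The lowest WT-RA mouse was well above the highest KO-RA mouse. On the log2 scale, KO differed from WT by -0.58 ± 0.093, with an adjusted p of 0.00152 in edgeR's test. Under hyperoxia it was 177, 163, 148 and 148 CPM in WT-O2 and 130.3, 136 and 122 CPM in KO-O2. Its log2 fold change of -0.30 ± 0.093 had an adjusted p of 0.0763 but missed the threshold of 0.32 in size, and it passed without WT-O2 mouse GSD406 (-0.33) or GSD408 (-0.33). Of its 31-base words, 15.5% also occur in other genes, mostly in the gene model A430018G15Rik. Cacnb1, Cacnb2 and Cacnb3 had log2 fold changes of 0.051 ± 0.087, 0.14 ± 0.097 and -0.037 ± 0.097 in room air and 0.093 ± 0.087, 0.15 ± 0.097 and 0.034 ± 0.097 in hyperoxia, and were not called.

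Hyperoxia and room air were then compared within each genotype. In WT-O2 vs WT-RA, none of the 29 members was called by edgeR, against 0.643% of all genes tested. At an unadjusted p below 0.05 there were 5 members, against 12.2% of all genes, and DESeq2 called 1, Cacna1h. Log2 fold changes of hyperoxia over room air ran from -0.32 (Cacnb4) to 0.60 (Scn10a), with a median of 0.033 against -0.0058 for all genes.

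The members with the smallest p in WT were Cacnb4 and Cacna1h, from the beta and the T-type genes. Cacnb4 was 177 to 236.5 CPM in WT-RA and 148.2 to 177.4 CPM in WT-O2, with a log2 fold change of -0.32 ± 0.085 and adjusted p = 0.1398 in edgeR's test. The groups met at 177 CPM. Cacna1h was 61.77 to 76.3 CPM in WT-RA and 81.01 to 91.76 CPM in WT-O2, without overlap, with 0.35 ± 0.10 and adjusted p = 0.17. Without WT-RA mouse GSD398 both were called, with log2 fold changes of -0.37 and 0.40.

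The other 3 members with an unadjusted p below 0.05 in WT were sodium channel genes. Scn3a gave 0.20 ± 0.085 (adjusted p = 0.353, edgeR), Scn3b 0.22 ± 0.10 (adjusted p = 0.393) and the low member Scn9a 0.44 ± 0.16 (adjusted p = 0.284). Scn9a did not overlap between the groups, at 4.58, 4.23, 3.32 and 3.62 CPM in WT-RA and 5.31, 5.63, 4.85 and 5.65 CPM in WT-O2.

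In KO-O2 vs KO-RA, no member was called by edgeR or by DESeq2, and none had an unadjusted p below 0.05. Of all genes, 0.012% were called and 4.86% had an unadjusted p below 0.05. Log2 fold changes of the members ran from -0.65 ± 0.55 (Scn4b) to 0.54 ± 0.43 (Cacna2d4), with a median of 0.10 against -0.0020 for all genes. Of the 29 members, 21 had a positive and 8 a negative value. KO-O2 mouse GSD494 had the highest level of its group for most members tested. The exceptions were Cacna2d4, Cacnb1, Cacnb3, Scn10a, Scn11a, Scn2b, Scn4b and Scn7a. The signs and the median of the members can thus rest in part on this mouse, and both are not given without it. The share of positive values over all genes is not given here either.

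**Figure D5:**
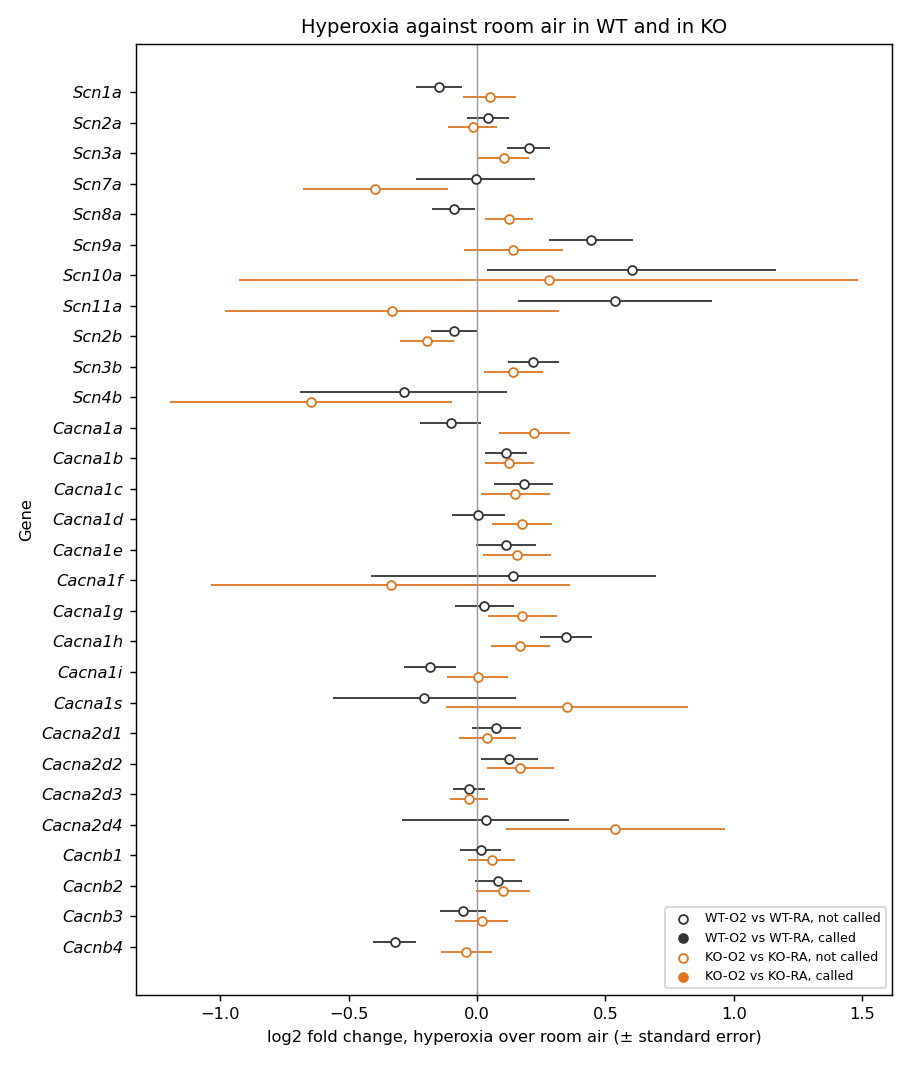
Log2 fold change of hyperoxia over room air with its standard error for the 29 channel genes tested, in WT (black) and in KO (orange). All points are open because no member was called by edgeR, and the widest bars belong to the low members Scn10a, Scn11a and Cacna1f.

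The difference of the hyperoxia effect between the genotypes was tested as an interaction term. No member and 0% of all genes were called by edgeR, and DESeq2 called no member. At an unadjusted p below 0.05 there was 1 member, against 4.05% of all genes. It was Cacnb4, with an interaction of 0.28 ± 0.13 on the log2 scale (adjusted p = 0.9999, edgeR). Its hyperoxia effect was -0.32 ± 0.085 in WT and -0.042 ± 0.099 in KO. For Cacna1h the effects were 0.35 ± 0.10 and 0.17 ± 0.12.

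Ratios between related pores were compared because the balance of these pairs is known to shift as neurons mature, and because a ratio within a library does not depend on its scaling. The ratio of Scn8a to Scn2a counts was 1.28, 1.12, 1.03 and 0.992 in WT-RA and 0.988, 0.966, 1.02 and 1.04 in WT-O2. It was 1.05, 1.07 and 1.05 in KO-RA and 1.12, 1.22 and 1.16 in KO-O2. The KO-O2 mice were above the WT-O2 mice, with a mean log2 ratio and SD of 0.22 ± 0.061 against 0.0037 ± 0.045. The exact two-sided permutation test gave p = 0.0286, the smallest that these group sizes allow. Adjusted by Benjamini-Hochberg for all 12 comparisons of the 3 ratios, it was 0.229.

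None of the 12 comparisons passed after adjustment. The smallest p possible was 0.0286 for 4 mice against 4 or 3, and 1 comparison alone at that limit could not pass. The adjusted values therefore do not show that the ratios were unchanged. The log2 ratio of Cacna1a to Cacna1b had a mean and SD of 0.59 ± 0.14 in WT-RA, and hyperoxic WT mice had 0.38 ± 0.093. KO mice had 0.49 ± 0.026 in room air and 0.59 ± 0.061 in hyperoxia. By exact permutation, the differences of WT-O2 from WT-RA and from KO-O2 gave p = 0.0571 each, or 0.229 after adjustment. Scn3a counts were well below those of Scn2a in all groups, with mean log2 ratios from -2.49 in KO-RA to -2.33 in WT-O2 and adjusted exact permutation p values from 0.343 to 1.0. With 3 KO mice on each side, no p below 0.1 was possible for KO-O2 vs KO-RA.

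Genes whose products hold or modulate the channels were examined as 4 lists. Of 10 partners of sodium channels at the axon initial segment, 2 were called higher and 2 lower in KO in room air, and 1 higher and 1 lower in hyperoxia. Fgf13, a fibroblast growth factor homologue that binds the sodium channel tail, was higher in KO (log2 fold change of 0.66 ± 0.083 in room air, adjusted p = 0.000293, and 0.43 ± 0.083 in hyperoxia, adjusted p = 0.00705, edgeR). Its relative Fgf12 was lower in both (-0.40 ± 0.078, adjusted p = 0.00496, and -0.39 ± 0.078, adjusted p = 0.00842). The summed level of the list was 2860 to 3232 CPM in WT and 2641 to 2839 CPM in KO. One gene made this gap: Nfasc, for the adhesion protein neurofascin, was 488.8 to 1131 CPM in WT and 412.5 to 507.7 CPM in KO, and the other 9 genes summed to 2092 to 2384 CPM in WT and 2133 to 2382 CPM in KO. Nfasc was called lower in room air (-0.88 ± 0.18, adjusted p = 0.00742, edgeR) and was not called in hyperoxia (-0.53 ± 0.18, adjusted p = 0.109). The mice with the most and the least Nfasc, GSD398 and GSD489, also had the highest and lowest summed oligodendrocyte lineage markers, at 16640 and 3077 CPM. The part of these markers in the difference in Nfasc was not tested. Nfasc is named here after its values were seen.

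Of the gamma-subunit family, named for the calcium channel of muscle but in brain known mostly as trafficking partners of AMPA receptors, 7 of 8 genes were tested. In KO, 1 was called higher and 2 lower in room air, and 1 higher and 1 lower in hyperoxia. Cacng8 was higher in room air and in hyperoxia (log2 fold changes of 0.48 ± 0.10, adjusted p = 0.00936, and 0.44 ± 0.10, adjusted p = 0.02098, edgeR). Cacng7 in room air had a log2 fold change of -0.30 ± 0.062 with an adjusted p of 0.00662 by edgeR, but it missed the fold threshold. Cacng4 was lower in both exposures (-0.47 ± 0.13, adjusted p = 0.0298, in room air and -0.48 ± 0.13, adjusted p = 0.0387, in hyperoxia, edgeR).

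Of 11 calcium channel inhibitors of the RGK family and channel adaptors, 2 were called higher and 1 lower in KO in room air, and 1 higher in hyperoxia. Rem2, an RGK protein that blocks calcium current, gave a log2 fold change of 0.31 ± 0.099 in room air (adjusted p = 0.0584, edgeR, not called for its fold change) and was higher in hyperoxia with 0.33 ± 0.099 (adjusted p = 0.0632). Of the NALCN sodium leak channel complex, the median log2 fold change of the 3 genes tested was -0.0058 in room air and -0.11 in hyperoxia. Nalcn itself in hyperoxia had a log2 fold change of -0.21 ± 0.056 with an adjusted p of 0.04599, below the fold threshold.

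Other cell type markers also differed between the genotypes. Of 8 oligodendrocyte lineage markers, 6 were called lower in KO in room air and 4 in hyperoxia, and their sum was 6788 to 16640 CPM in WT-RA, 4428 to 11150 in WT-O2, 3077 to 4756 in KO-RA and 3078 to 5181 in KO-O2. Of 7 astrocyte markers, 2 were called higher in each exposure, with Slc1a3 in both, Gfap in room air and Slc1a2 in hyperoxia. Log2 fold changes were positive for 5 of the 7 in each exposure. Aldh1l1 was negative in both, at -0.21 in room air (adjusted p = 0.0429, edgeR), short of the fold threshold, and -0.15 in hyperoxia. Of 7 deep-layer cortical neuron markers tested, 1 was called higher and 4 lower in room air, and 1 higher and 3 lower in hyperoxia. One pan-neuronal marker of 8 was called lower in each, while the summed microglial markers ranged over 258.3 to 306 CPM. None of the 7 endothelial and mural markers was called, with sums of 300.1 to 444 CPM. None of the 5 choroid plexus markers was called either, but their sum set 2 KO mice apart: it was 36.81 CPM in KO-RA mouse GSD489 and 105.8 CPM in KO-O2 mouse GSD494, against 1706 to 3397 CPM in the other 4 KO mice and 922.4 to 2410 CPM in WT. The part of these markers in the differences of the channel genes was not tested.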

How the data were processed

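The authors deposited estimated counts per gene for the 14 libraries, made with Kallisto against GRCm39 (release 104) and summed to genes with tximport. The versions of these tools are not given in the sources used here. Between 41% and 43.2% of the values of a library were not whole, and they were rounded. Of 36118 gene IDs, 35825 were given a symbol. Genes were filtered with filterByExpr, normalized by TMM (factors from 0.965 to 1.02) and fitted in edgeR 4.0.16 under R 4.3.3, where each group had 1 coefficient and no covariate was used. The main test was the quasi-likelihood F-test, with adjustment over the 16637 genes tested, and the standard error is the log2 fold change divided by the square root of F. Nothing states whether mice of a group share a litter, so the p-values measure the spread between these mice. The script was tested on simulated data.

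CPM per kb divides by the merged exon length in GENCODE M21 (GRCm38), since no annotation of GRCm39 was used here, and promoters come from RefSeq (GRCm38.p6). The gene models of the 2 builds differ. Words of 31 bases were counted in GENCODE M21 transcripts.

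Genes named were those called in any comparison, the main brain isoforms, and up to 2 genes with the smallest p per related list and genotype comparison. Values of 2 channel genes are not reported here, and they are left out of the counts of members but not of the fits. The members and the lists were chosen with earlier results of these data known. The alternatives were DESeq2 1.42.0, scaling by DESeq2 size factors or by library size, no filter or at least 10 counts in every library, a fold change of 1.5, a q below 0.05, only the groups compared, mouse GSD408 as room air and each mouse left out. Leaving out GSD398 and GSD408 together and the correlations in WT mice were chosen after seeing the data.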

Additional observations from a re-analysis of the deposited data

Results flagged for a closer look

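In each of 60 pairs of a channel gene and a WT group, the highest and lowest mouse were checked for a gap to the next mouse that exceeded Dixon's 95% critical share of the range for 4 samples. Chance gives such a gap in about 1 in 20 groups, and 2 were found. Cacna1s in WT-RA mouse GSD398 was at 2.873 CPM while the other 3 mice were at 1.338 to 1.449 CPM, a gap of 0.928 of the range. Scn11a in WT-O2 mouse GSD406 was at 1.027 CPM while the others were at 0.586 to 0.631 CPM, a gap of 0.898 of the range. GSD398 also held the highest striatal and thalamic marker sums of the WT-RA mice.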

How the results depend on the processing

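In KO-RA vs WT-RA, 12 members were called, and 8 to 12 under the alternatives run. These counts hold Scn10a and Scn11a, which passed the filter only through WT. Without them, the 10 calls fell to 6 at a fold change of at least 1.5, with Cacna1g, Cacna1h, Cacna1i and Cacnb4 lost, and were 8 to 10 under the other alternatives. Leaving out 1 mouse in turn gave 8 to 12 calls in all, with 8 without KO-RA mouse GSD496, where Cacna1g, Cacna1s, Scn10a and Scn11a were lost. For KO-O2 against WT-O2, 4 of the 7 members remained at a fold change of at least 1.5, but only Scn4b and Cacna2d2 of the 5 other than Scn10a and Scn11a, with Cacna1i, Scn1a and Scn3b lost. Leaving out 1 mouse in turn gave 5 to 8 calls: without KO-O2 mouse GSD491 or GSD495, Cacna1i and Scn10a were lost. In WT-O2 vs WT-RA, DESeq2 called 1 member where edgeR called 0, and leaving out 1 mouse in turn gave 0 to 2, with 2 without WT-RA mouse GSD398. Without GSD398 and GSD408 together, 12 and 8 members were called in the genotype comparisons, with Cacnb4 gained in hyperoxia, and with GSD408 as room air 12 and 7. Of 318 alternative values of log2 fold changes that were called, 284 kept their call, 34 lost it and none changed sign. Scn4b and Cacna2d2 kept their calls in both exposures under each alternative run, as did Scn1a, Scn3b and Cacna2d4 in room air. No paired analysis was possible because the labels give the groups no shared replicate numbers. Low members were limited by counts, and for these a difference may not be detectable at this depth.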

Other observations

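Among the 8 WT mice alone, the 10 channel genes called in a genotype comparison other than Scn10a and Scn11a were related to the summed striatal and thalamic markers, 20 relations in all, chosen after seeing the data. Scn4b followed the striatal sum, with Pearson's r of 0.984 (exact permutation p = 0.000719, adjusted p = 0.00719) and Spearman's rho of 0.833 (exact permutation p = 0.0154, adjusted p = 0.14), and r was 0.935 without the 2 mice farthest from the median sum. Cacna2d4 followed the thalamic sum, with r of 0.969 (exact permutation p = 0.000198, adjusted p = 0.00396), rho of 0.976 (exact permutation p = 0.000397, adjusted p = 0.00794) and r of 0.903 without 2 mice. Cacna1i was lower where the thalamic sum was higher, with r of -0.887 (exact permutation p = 0.00305, adjusted p = 0.0203) and rho of -0.786 (exact permutation p = 0.0279, adjusted p = 0.14). Without 2 mice its r was -0.672. Cacna1s and the striatal sum gave r of 0.856 (exact permutation p = 0.00605, adjusted p = 0.0302) and rho of 0.619 (exact permutation p = 0.115, adjusted p = 0.23), and r of 0.741 without 2 mice. The 2 mice left out there were GSD404 and GSD408, so GSD398 was kept. Cacna1s was 2.873 CPM in GSD398 and 2.98 CPM in GSD408, against 0.8061 to 1.449 CPM in the other WT mice. The relation without both GSD398 and GSD408 was not computed. For Scn1a, Scn3b, Cacna1g, Cacna1h, Cacna2d2 and Cacnb4, neither sum gave an adjusted p below 0.1. The WT mice of both exposures were pooled in each relation and in its permutation, so a difference between the exposures can enter these values. No value within an exposure was computed, and CPM values of a library share its scaling.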
